A study of Rattus norvegicus with 8 samples.

Results

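The 8 genes of iron handling described here were followed library by library in the hippocampus and the hypothalamus of the rat. They were Tf, Tfrc, Fth1, Ftl1, Slc40a1, Slc11a2, Cp and Hmox1, 8 of the 15892 gene symbols listed for both tissues. The genes were picked by symbol, with their values in these tables already known, so their levels are a description and carry no test. Of the 8 symbols, 7 stood in both tables as written, and Ftl1 was listed under its older symbol Ftl. The values were FPKM, fragments per kilobase of transcript scaled to the mapped fragments of the library, summed over the loci that carry a symbol and divided by 1 scaling factor per library. The animals were male Sprague Dawley rats, an outbred strain, 2 months old when the diet began. All of them received an omega-3 fatty acid diet with docosahexaenoic acid (DHA) and 15% fructose in the drinking water for 6 weeks. Each tissue had 4 libraries of polyadenylated RNA, and no library of an animal without fructose or DHA was analysed here. The labels do not say whether libraries came from separate animals or whether a pair of tissues came from the same animal, so the spread given is that between libraries.

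Iron circulates in plasma bound to transferrin (Tf) and enters cells when the transferrin receptor (Tfrc) is internalised; the divalent metal transporter (Slc11a2) then moves it out of the endosome. Iron that is not used is stored in ferritin, a shell of heavy (Fth1) and light (Ftl1) chains, and leaves the cell through ferroportin (Slc40a1) with the help of the copper ferroxidase ceruloplasmin (Cp). Heme oxygenase 1 (Hmox1) frees iron from heme. In brain, transferrin RNA is known from oligodendrocytes and the choroid plexus, and ceruloplasmin RNA from astrocytes.

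The tissues were listed in separate tables with their own locus numbering, so tissue and table cannot be told apart, and no test was made across them. The comparison kept the 10557 genes whose average across all 8 libraries reached 1 FPKM. A gene was called when the mean difference was at least 1 on the scale of log2(FPKM + 1) and every library of one tissue lay above every library of the other. By this measure 13.3% of all genes were higher in hypothalamus and 13.4% were lower, and 53.4% had no overlap between tissues at any size of difference. With values as deposited, 65.3% of the calls were higher, against 49.9% after scaling, and the median gene moved from -0.04 to 0.18. The labels matched the genes known from each tissue: Neurod6 and Neurod2, transcription factors of hippocampal pyramidal and granule neurons, were at 85.9 ± 21.0 and 29.0 ± 13.4 FPKM (SD, n = 4) in hippocampus and at 0.98 ± 0.41 and 0.45 ± 0.28 in hypothalamus, and the hypothalamic peptide genes Avp and Oxt were at 0.13 ± 0.11 and 0.10 ± 0.15 in hippocampus and at 4272 ± 2526 and 1904 ± 218 in hypothalamus. Prox1, a factor of dentate granule neurons, was at 14.4 ± 5.48 and 3.80 ± 0.60. Of 10 neuron markers, 1 was called higher and 3 lower in hypothalamus. Snap25 was at 737 ± 71.1 and 386 ± 88.7 FPKM and Syt1 at 609 ± 92.6 and 192 ± 20.3 in hippocampus and hypothalamus. Both had 2 listed loci in hippocampus and 1 in hypothalamus, and their values are sums over these loci. Some genes used by every cell lay far apart between the tables. Gapdh, a glycolytic enzyme, was listed at 6.20 ± 1.66 FPKM for hippocampus against 582 ± 125 for hypothalamus, and Ppia, a protein-folding enzyme, was at 6.95 ± 1.41 and 0.56 ± 0.83. Of 66 ribosomal protein genes, 20 were at least 4-fold apart on the log2(FPKM + 1) scale, against 6.92% of all genes compared. Depth in reads was unknown. Hippocampus replicates 3 and 4 stood apart by choroid plexus markers: 11 of 12 listed genes were in both tables, their summed level was 7857 and 5804 FPKM there, and it was 125 to 215 FPKM in the other 6 libraries. Ttr, the leading marker, was at 6656 and 5004 FPKM in replicates 3 and 4. Enpp2, the next most abundant, had a mean of 420.1 ± 393 in hippocampus and 95.5 ± 5.46 in hypothalamus. Otx2, a defining transcription factor of that tissue, was listed at 0 in all 8 libraries. Hippocampus replicate 2 and hypothalamus replicate 1 also stood apart: 19.8% of all genes compared were highest in both of these libraries within their tissue and 18.1% were lowest in both, while no other pair of libraries exceeded 7.81% and 10.3%.

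Of the 7 iron handling genes that passed the filter, 4 were called higher in hypothalamus (Tf, Fth1, Ftl1 and Cp; 13.3% of all genes) and none was called lower (13.4%). Slc40a1 was below the filter. Without regard to size, 5 of the 7 were higher in every hypothalamus library (25.7% of all genes), 1 was lower and 1 overlapped. The percentages over all genes stand beside this count only as background, because the genes were chosen with the contrast known. The median difference over these 7 was 1.46, against -0.04 over all genes compared. The call on Tf rests on a locus that was listed for 1 tissue, as described next. With Tf taken from the locus listed for both tissues, 3 genes were called. The 4 calls were also made without hippocampus replicates 3 and 4, and without hippocampus replicate 2 and hypothalamus replicate 1 together, where Hmox1 was called as well and Ftl1 differed by 1.44.

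**Figure D1:**
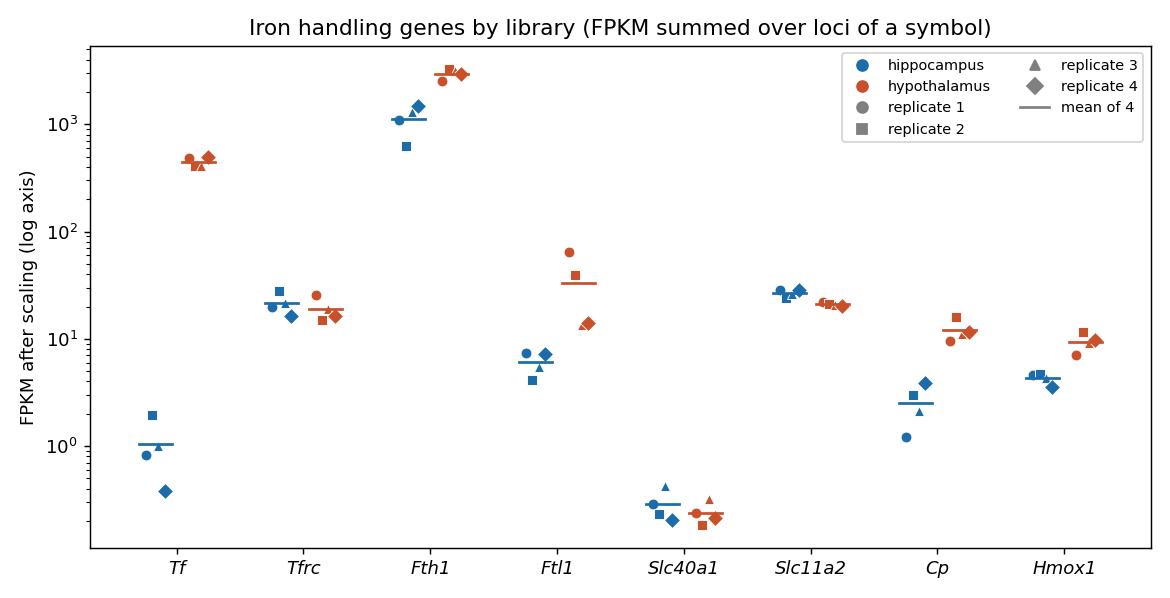
FPKM after scaling (log axis) of the 8 iron handling genes in each library; blue points are the 4 hippocampus libraries, red points the 4 hypothalamus libraries, marker shapes give the replicate and lines the means. Tf, Fth1, Ftl1, Cp and Hmox1 lie higher in all hypothalamus libraries, Slc11a2 lies slightly lower, and Tfrc and Slc40a1 overlap. Nearly all of the Tf signal in hypothalamus comes from a locus that was not listed for hippocampus.

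Tf had 1 listed locus in hippocampus and 2 in hypothalamus, and the loci did not correspond. Summed by symbol, Tf was at 0.827, 1.95, 0.999 and 0.383 FPKM in hippocampus replicates 1 to 4. In hypothalamus it was at 481, 408, 410.4 and 499 FPKM. All hypothalamus libraries lay far above all hippocampus libraries, and the ratio of the means was 432. The log2 difference was 7.83 ± 0.24 (SE), above that of nearly every gene compared.

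The genes listed next to each Tf locus show which loci lie at the same place in the numbering. The hippocampus locus stood directly after Rab6b, and so did the first hypothalamus locus, with all 8 of the nearest listed genes (4 on each side) in common. The second hypothalamus locus, which carried nearly all of the signal, stood after Srprb and before RGD1310507 and Cdv3. Slco2a1 and Rab6b were listed just before that Srprb as well, so it shared 2 of its 8 nearest listed genes with the hippocampus locus. Different places in the numbering therefore need not be distant places in the genome. In the hippocampus table the listed loci went from Srprb directly to Cdv3 and skipped 1 number. Skipped numbers were common, since 59.5% of the locus numbers are listed for hippocampus and 61.4% for hypothalamus. In the RefSeq annotation of the assembly GRCr8, Tf lies on the same strand as Srprb and Cdv3. Of the 8 genes around the shared locus, 7 have a strand entry there, and all 7 lie on the opposite strand. Around the second hypothalamus locus, 3 of the 8 lie on the strand of Tf, 2 on the opposite strand and 3 have no entry.

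At the shared locus the order of the tissues was the reverse. It was at 1.04 ± 0.66 FPKM (SD, n = 4) in hippocampus and 0.12 ± 0.10 in hypothalamus, where replicate 1 was listed at 0 and the highest library at 0.24. The log2 difference was -0.82 ± 0.24 (SE), and the libraries did not overlap. Its mean of 0.58 FPKM over the 8 libraries was below the filter. The second locus was at 481, 408, 410.1 and 498 FPKM in hypothalamus replicates 1 to 4, a mean of 449 ± 47.1, and has no counterpart among the hippocampus values used here. The level of Tf in hippocampus was therefore not comparable, and the ratio of 432 sets 2 different loci side by side.

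**Figure D2:**
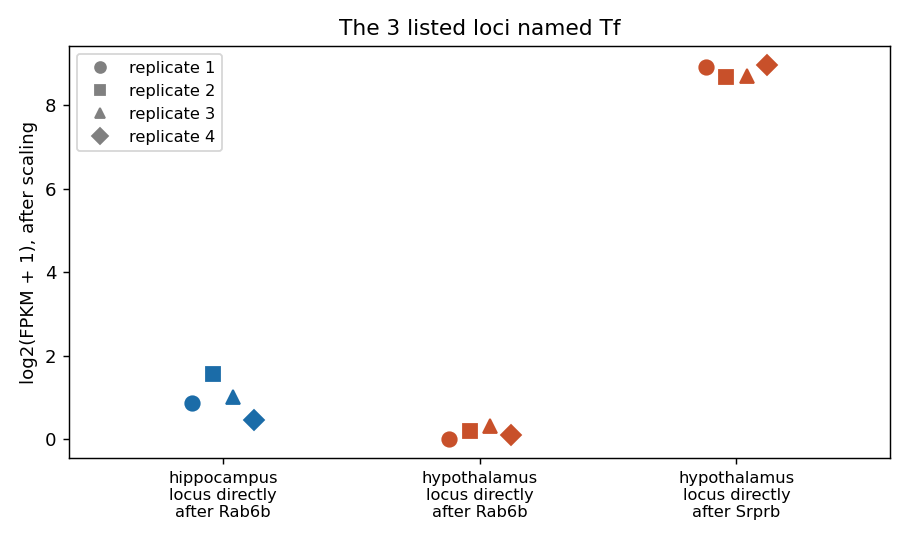
Level of each of the 3 listed loci named Tf, as log2(FPKM + 1) after scaling, for the 4 replicates (marker shapes) of hippocampus (blue) and hypothalamus (red). The locus directly after Rab6b is below 2 FPKM in every library, lower in hypothalamus than in hippocampus, and the high values, 408 to 498 FPKM, belong to a locus listed for hypothalamus.

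Unequal numbers of loci went with unequal calls across the tables as well. Of 572 compared symbols with more loci in hypothalamus, 24.8% were called higher there and 7.52% lower. Of 835 symbols with more loci in hippocampus, 3.95% were called higher in hypothalamus and 36.0% lower. For the 8720 symbols with 1 locus in each table the shares were 13.7% and 11.5%. The other 7 iron handling genes had 1 locus in each table, and for all of them the gene listed just before the locus was the same in both.

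Markers of oligodendrocytes, known to hold transferrin RNA, were abundant in both tissues. All 12 oligodendrocyte markers were measured, 1 was called higher in hypothalamus (Mobp) and none lower, beside 13.3% and 13.4% of all genes. Their summed level was 4453 to 6452 FPKM in hippocampus and 5741 to 9482 in hypothalamus. None of them was listed at 0. Mbp, a myelin sheath protein, was at 2050.2 ± 342 FPKM in hippocampus against 3773 ± 902 in hypothalamus. In hippocampus replicates 3 and 4, which had high choroid plexus markers, the listed Tf locus was at 0.999 and 0.383 FPKM, within or below the range of the other replicates. The abundant Tf locus has no hippocampus value, so Tf of the choroid plexus cannot be read from these libraries. The part of either cell type in the Tf values was not tested. In bulk tissue, fewer cells of a type and less RNA per cell cannot be told apart.

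The promoter of Tf is shown because 2 places in the numbering carry its name, that of Tfrc because it encodes the receptor whose level did not separate the tissues, and that of Cp because it was called with 1 locus in each table. The RefSeq promoter table (assembly GRCr8, from 250 bases before to 50 after each start) matched 5 of the 8 genes, with 6 windows. Printed 5′ to 3′ are the 250 bases before the start of Tf at chr8:112695377-112695626 (minus strand), of Tfrc at chr11:81690319-81690568 (minus strand) and of Cp at chr2:104368420-104368669 (plus strand). Capitals mark the motifs TATAAA and ACGTG, on either strand.
Tf: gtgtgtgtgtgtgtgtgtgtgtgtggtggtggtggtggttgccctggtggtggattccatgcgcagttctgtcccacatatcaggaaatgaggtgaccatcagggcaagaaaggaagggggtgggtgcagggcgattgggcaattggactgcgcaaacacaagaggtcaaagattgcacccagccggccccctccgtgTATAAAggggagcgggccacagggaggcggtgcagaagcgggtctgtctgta
Tfrc: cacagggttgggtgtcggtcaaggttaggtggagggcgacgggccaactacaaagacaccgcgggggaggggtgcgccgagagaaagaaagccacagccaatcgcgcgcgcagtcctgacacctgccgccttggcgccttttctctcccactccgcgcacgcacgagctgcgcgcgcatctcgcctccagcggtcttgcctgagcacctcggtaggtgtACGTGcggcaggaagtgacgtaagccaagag
Cp: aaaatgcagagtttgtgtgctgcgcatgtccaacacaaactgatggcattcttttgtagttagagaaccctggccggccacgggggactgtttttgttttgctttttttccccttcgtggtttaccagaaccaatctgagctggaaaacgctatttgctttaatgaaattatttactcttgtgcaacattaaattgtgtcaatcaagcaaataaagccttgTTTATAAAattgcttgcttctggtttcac

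TATAAA, the core of the TATA box, began 52 bases before the start of Tf and 27 before that of Cp, where TTTATA, its match on the other strand, overlapped it from 29 bases before the start. It was found on either strand in 14.2% of 33469 promoter windows of 300 bases. ACGTG, the core sequence bound by hypoxia-inducible factors, began 31 bases before the start of Tfrc and was found in 19.3% of all windows. TGACNNNGC, the core of the antioxidant response element, was searched as well. These letters were in none of the 6 windows, which cover Tf, Tfrc, Slc40a1, Slc11a2 and Cp, and in 12.1% of all windows. Fth1, Ftl1 and Hmox1 had no window and were not searched. No match of one motif overlapped that of another in the sequences shown. A match describes these letters only.

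Tfrc, the receptor that takes up transferrin, did not separate the tissues. It was at 19.7, 28.0, 21.6 and 16.2 FPKM in hippocampus replicates 1 to 4 and at 25.4, 14.8, 18.8 and 16.4 in hypothalamus. The libraries overlapped throughout this range, and the log2 difference was -0.18 ± 0.22 (SE), at percentile 43.2 of all genes compared. Equality was not tested. Of the 9 endothelial markers measured of 12, a cell type known for this receptor, 1 was called higher and 3 lower in hypothalamus. The shares over all genes were 13.3% and 13.4%. The summed level of these markers was 250.1 to 337 FPKM in hippocampus, above the 162 to 234 of hypothalamus. None was at 0, and the most abundant were Slc2a1 at 139 ± 23.9 and 102 ± 15.4 and Cldn5 at 77.7 ± 19.0 and 33.9 ± 4.02.

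Slc11a2, the endosomal iron transporter, was the steadiest of the genes above the filter. It was at 28.6, 23.8, 26.0 and 28.2 FPKM in hippocampus replicates 1 to 4 and at 22.1, 21.2, 20.7 and 20.4 in hypothalamus. All hypothalamus libraries were lower, by a small margin, with a log2 difference of -0.32 ± 0.06 (SE) that was short of the limit of 1. No overlap in this direction was seen for 27.7% of all genes compared. The hippocampus value of replicate 3 carried the status FAIL, the only flag among 68 values at the loci of the iron handling genes. Its SD between hypothalamus libraries, 0.05 on the log2(FPKM + 1) scale, was at percentile 4.05 of the 8278 genes that averaged 5 FPKM or more there.

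The ferritin heavy chain was the most abundant of the iron handling transcripts and was higher in hypothalamus. Fth1, whose protein carries the iron-oxidising site of the shell, was at 1104, 629.7, 1295 and 1481 FPKM in hippocampus replicates 1 to 4. In hypothalamus it was at 2515, 3305, 3131 and 2962 FPKM. The tissues did not overlap, and hippocampus replicate 2 was the lowest library. The ratio of the means was 2.64 and the log2 difference was 1.46 ± 0.28 (SE), at percentile 92.9 of all genes. The spread of Fth1 was wide in hippocampus, at percentile 91.8 of 7801 genes by SD, and near the middle in hypothalamus, at percentile 38.0 of 8278.

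Ftl1, the ferritin light chain, was listed at low values that varied widely between hypothalamus libraries. It was at 7.38, 4.15, 5.42 and 7.14 FPKM in hippocampus replicates 1 to 4 and at 65.1, 39.5, 13.5 and 14.1 in hypothalamus. Every hypothalamus library was above every hippocampus library, but replicates 1 and 2 stood well above replicates 3 and 4. The log2 difference was 2.00 ± 0.57 (SE), and it was 2.32 without hypothalamus replicate 3 and 1.59 without replicate 1. The SD of 1.09 between the hypothalamus libraries was at percentile 99.6 of the same 8278 genes. Markers of blood cells were also higher in hypothalamus replicates 1 and 2. The summed level of Alas2, Slc4a1 and Ppbp, 3 of 8 listed genes, was 19.9, 15.4, 3.37 and 7.11 FPKM in hypothalamus replicates 1 to 4. In hippocampus the order differed: the sum was 3.35, 3.46, 1.74 and 5.75 FPKM, highest in replicate 4, while Ftl1 was highest in replicate 1. Alas2 gave nearly all of the sum in both tissues, and Ppbp, a platelet gene, was at 0 in all 8 libraries. The globin genes on that list were not found in both tables under the symbols looked for, so they were not used. The part of blood in the Ftl1 values was not tested.

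The heavy and the light chain lay far apart within each library. Fth1 was 150 to 239 times Ftl1 in hippocampus and 38.6 to 232 times in hypothalamus, both per length. RefSeq names 21 further Ftl1 copies in GRCr8, 14 of them pseudogenes, and 6 further Fth1 copies, 5 of them pseudogenes. None of these symbols was listed in either table. They were looked for as written, and Ftl1 itself was listed as Ftl, so copies under other names would have been missed. Reads of near-identical copies may have been split or left out by the authors' counting, so the levels of both chains are uncertain, and the part of the copies in the gap between them was not tested.

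**Figure D3:**
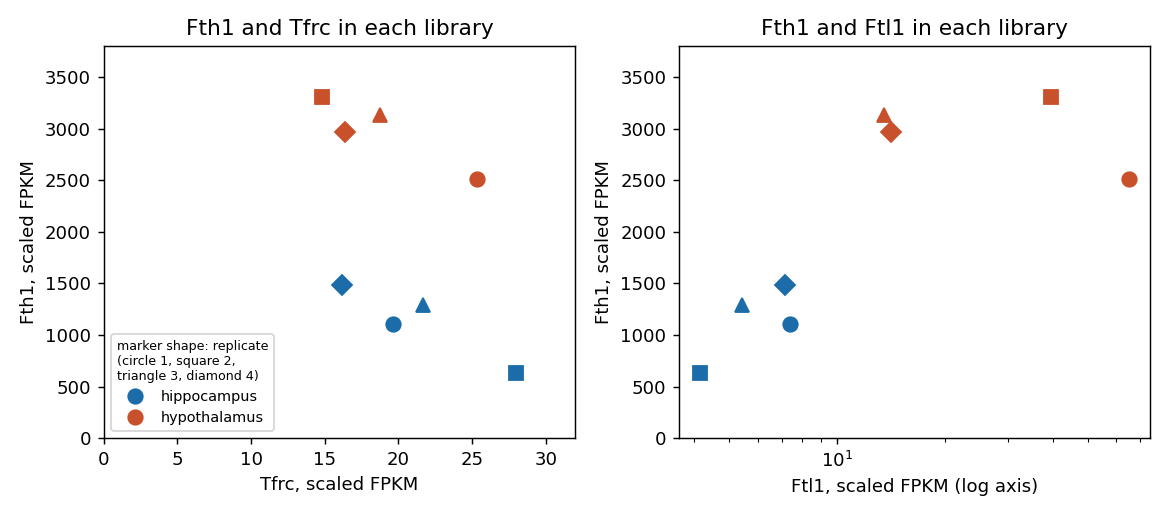
Scaled FPKM of Fth1 (vertical axis) against Tfrc (left, linear axis) and Ftl1 (right, log axis) in each of the 8 libraries, blue for hippocampus and red for hypothalamus, marker shape by replicate. In each tissue the library with the highest Tfrc, hippocampus replicate 2 and hypothalamus replicate 1, has the lowest Fth1.

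Storage and uptake transcripts lay in opposite order at the ends of each tissue's range. In hippocampus, replicate 2 had the highest Tfrc at 28.0 FPKM and the lowest Fth1 at 629.7. In hypothalamus, replicate 1 had the highest Tfrc at 25.4 FPKM and the lowest Fth1 at 2515. These 2 libraries differed from the rest across many genes, as given above, and nothing particular to iron genes is read from the order. Ireb2, an iron regulatory protein, was highest there too, at 16.8 FPKM against 8.74, 9.13 and 10.2 in the other hippocampus libraries. In hypothalamus Ireb2 was at 14.6 in replicate 1 against 7.57, 7.87 and 8.14 in the other libraries. Aco1, the other iron regulatory protein, was not: it was highest in hippocampus replicate 3 at 13.5 and in hypothalamus replicate 2 at 17.1. The ratio of Fth1 to Tfrc was 22.5 to 91.5 in hippocampus and 99.2 to 223 in hypothalamus, with no overlap, and 56.1 to 91.5 and 167 to 223 without those 2 libraries. These orders were noticed in the data, rest on 4 libraries a tissue, and have no test.

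Slc40a1, the iron exporter ferroportin, was listed at low values everywhere. It was at 0.29, 0.23, 0.42 and 0.20 FPKM in hippocampus replicates 1 to 4 and at 0.24, 0.18, 0.32 and 0.21 in hypothalamus. The tissues overlapped, at a log2 difference of -0.05 ± 0.06 (SE), and without counts a detection limit could not be given. Of the 8 nearest listed genes, 4 were shared between the tables at this locus.

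Cp, the ferroxidase that works with ferroportin, was higher in hypothalamus. It was at 1.21, 3.01, 2.11 and 3.84 FPKM in hippocampus replicates 1 to 4 and at 9.63, 16.1, 11.1 and 11.7 in hypothalamus. The tissues did not overlap, and the highest hippocampus library was well below the lowest of hypothalamus. The ratio of the means was 4.78 and the log2 difference was 1.93 ± 0.29 (SE), at percentile 95.9 of all genes. All 10 astrocyte markers were measured and none was listed at 0. Of these, 3 were called higher in hypothalamus and 1 lower, beside 13.3% and 13.4% of all genes. Their summed level was 3472 to 3661 FPKM in hippocampus and 3015 to 3741 in hypothalamus, which overlap. The highest of these, S100b and Aldoc, were at 1195 ± 177 and 719 ± 186 FPKM in hippocampus and 1084 ± 189 and 859 ± 84.2 in hypothalamus. Cp was 2.12 higher on the log2 scale without hippocampus replicates 3 and 4, the libraries with high choroid plexus markers. Heph, a membrane ferroxidase related to Cp, was at 1.64 ± 0.45 and 3.40 ± 0.35 FPKM, a difference of 0.75 with no overlap.

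Hmox1, the inducible heme oxygenase, was higher in every hypothalamus library and was just short of the limit. It was at 4.64, 4.66, 4.32 and 3.57 FPKM in hippocampus replicates 1 to 4 and at 7.08, 11.7, 9.04 and 9.82 in hypothalamus. The log2 difference was 0.96 ± 0.15 (SE) and the ratio of the means was 2.19. It reached 1.16 on unscaled values, 1.06 with upper-quartile factors, 1.10 with a pseudocount of 0.1 and 1.07 without hypothalamus replicate 1, each past the limit. Of 12 microglia markers, all measured and none at 0, 2 were called higher and none lower, beside 13.3% and 13.4% of all genes. Their summed level was 183 to 309 FPKM in hippocampus and 285 to 402 in hypothalamus. The highest of them were C1qa at 54.7 ± 15.2 and 61.0 ± 10.4 and C1qb at 15.5 ± 1.27 and 63.4 ± 12.3. C1qb had 2 listed loci in hippocampus and 1 in hypothalamus. The part of microglia in the Hmox1 values was not tested. Hmox2, the constitutive heme oxygenase, was 4.47 to 9.67 times Hmox1 in hippocampus and 3.65 to 5.34 times in hypothalamus.

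The wider iron pathway was described through 4 lists, of which 75 of 81 genes were in both tables and 65 passed the filter. Of these, 10 were called higher in hypothalamus and 3 lower, or 15.4% and 4.62%, beside 13.3% and 13.4% of all genes compared. The median difference was 0.02. Of 14 genes of reduction and transport, 3 were called higher and none lower, with a median of 0.17. With a pseudocount of 0.1, 6 were higher. The median was 0.69 without hippocampus replicates 3 and 4, 0.34 with values as deposited, 0.27 without hypothalamus replicate 1 and 0.08 without hypothalamus replicate 3. Steap2, a metalloreductase of endosomal iron, was at 6.38 ± 2.37 FPKM in hippocampus against 13.5 ± 1.48 in hypothalamus. Cybrd1, another ferric reductase, was at 1.05 ± 0.20 and 3.45 ± 0.79. Slc22a17, the brain-type receptor of lipocalin 2, was the most abundant at 538 ± 171 and 1085 ± 90.2, while the lysosomal channel Mcoln1 overlapped at 36.7 ± 6.86 and 40.0 ± 8.0.

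Among 19 regulators of iron balance, 2 were called higher and 1 lower (10.5% and 5.26%), beside 13.3% and 13.4% of all genes. The median was 0.04, against -0.04 over all genes. Bmp6, the ligand that signals iron load to hepcidin in liver, was at 6.97, 3.15, 6.15 and 7.98 FPKM in hippocampus and at 23.7, 47.5, 30.9 and 33.1 in hypothalamus, a difference of 2.31 ± 0.32 (SE). Bmp2, a related ligand, was at 0.76 ± 0.28 and 3.44 ± 0.57 FPKM. Acvr1, a type I receptor for such ligands, went the other way, at 22.3 ± 1.92 in hippocampus and 7.41 ± 0.42 in hypothalamus. Hamp, which encodes hepcidin, was below the filter, at 0 to 0.70 FPKM in hippocampus and 0.25 to 0.51 in hypothalamus. The iron regulatory proteins were not called: Aco1 was at 12.8 ± 0.76 and 15.7 ± 1.14 FPKM, and Ireb2 at 11.2 ± 3.75 and 9.55 ± 3.38. The most abundant regulators were Epas1, a hypoxia-inducible factor, at 72.4 ± 5.64 and 91.8 ± 18.9, and Fbxl5, which marks iron regulatory proteins for decay, at 57.5 ± 4.79 and 40.2 ± 9.93, and neither separated the tissues.

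**Figure D4:**
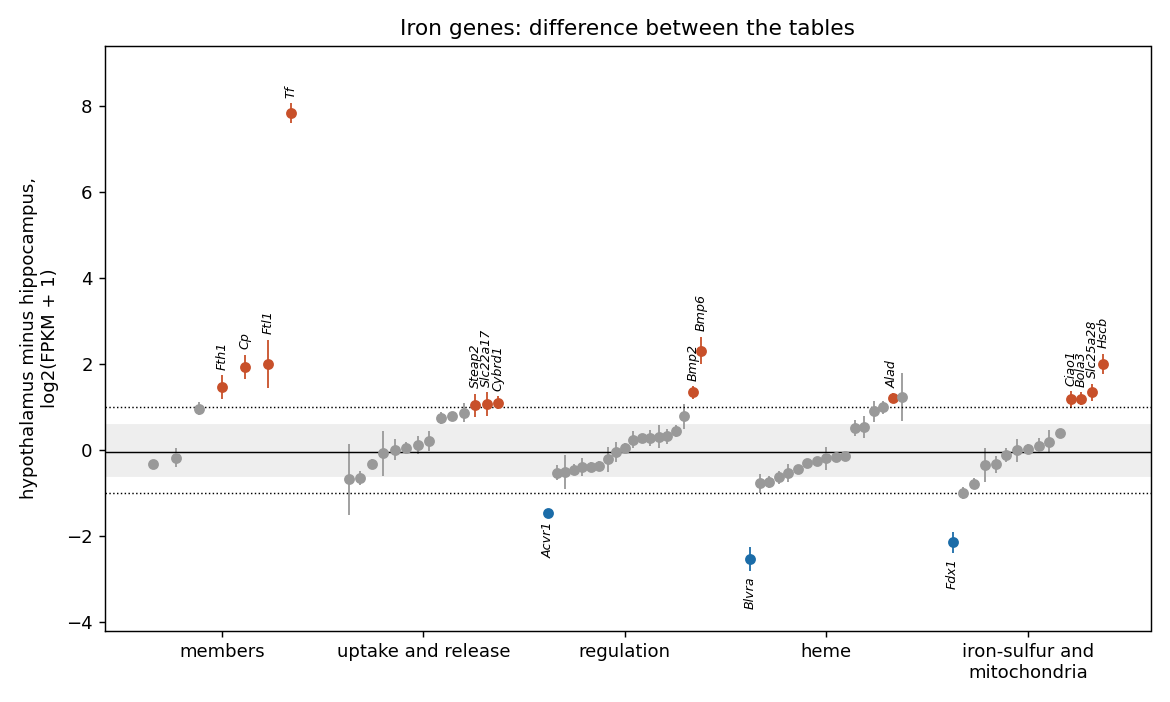
Hypothalamus minus hippocampus on the scale of log2(FPKM + 1), with SE bars, for the 7 iron handling genes and the 65 genes of 4 iron lists above the filter; red points were called higher and blue points lower, and only these are named. The grey band holds the middle of all genes compared (-0.60 to 0.58, the lower to the upper quartile), the solid line is their median and dotted lines mark the limit of 1. Tf stands alone at 7.83, a value that sets 2 different loci side by side.

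Of 17 genes that make, move and break down heme, 1 was called higher and 1 lower (5.88% each), beside 13.3% and 13.4% of all genes. The median was -0.19, against -0.04 over all genes. The count of higher genes rested on single libraries: it was 3 without hippocampus replicate 1 and 2 without hippocampus replicate 2 or 4 or hypothalamus replicate 1 or 3. It was also 3 with values as deposited, where the median was 0.04, and with a pseudocount of 0.1. Alad, an early enzyme of heme synthesis, was at 11.6 ± 1.69 FPKM in hippocampus against 28.0 ± 2.78 in hypothalamus, a difference of 1.21 ± 0.12 (SE). Blvra, the biliverdin reductase that acts after heme oxygenase, was at 21.6, 19.6, 37.2 and 27.2 FPKM in hippocampus and at 5.68, 2.53, 3.58 and 3.13 in hypothalamus, a difference of -2.53 ± 0.28 (SE). Blvra and Hmox1, successive steps of heme breakdown, thus lay in opposite order between the tables, while Blvrb, the other reductase, was at 44.1 ± 8.33 and 25.6 ± 6.03 and was not called. Lrp1, a scavenger receptor for heme bound to hemopexin, was at 83.2 ± 7.54 and 169 ± 29.8, where 3 of the 4 hippocampus values had a status other than OK. Slc48a1, a heme transporter, was at 76.5 ± 6.10 and 116 ± 34.0, with 2 listed loci in hippocampus and 1 in hypothalamus.

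Of 15 iron-sulfur cluster and mitochondrial iron genes, 4 were called higher and 1 lower (26.7% and 6.67%), beside 13.3% and 13.4% of all genes. The median was 0.02, against -0.04 over all genes. The number lower was 2 without hippocampus replicate 1, hippocampus replicate 2 or hypothalamus replicate 1, and 3 with a pseudocount of 0.1. Hscb, a cochaperone that delivers new clusters, was at 7.61 ± 2.52 FPKM in hippocampus against 32.5 ± 3.78 in hypothalamus, a difference of 2.00 ± 0.24 (SE). Slc25a28, a mitochondrial iron importer, was at 27.5 ± 6.16 and 70.6 ± 10.8. Ciao1 and Bola3, factors of cluster assembly, were at 13.5 ± 3.35 and 16.3 ± 3.32 in hippocampus and 31.3 ± 4.13 and 38.1 ± 2.91 in hypothalamus. Fdx1, the ferredoxin that supplies electrons in mitochondria, was at 21.7 ± 5.64 in hippocampus and 4.13 ± 1.21 in hypothalamus, a difference of -2.15 ± 0.25 (SE). The most abundant genes overlapped, with Isca1 at 161 ± 20.1 and 163 ± 14.8 FPKM and the scaffold Iscu at 143 ± 65.0 and 102 ± 6.68. Isca1 was summed over 2 listed loci in hippocampus and had 1 in hypothalamus.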

How the data were processed

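The authors deposited FPKM values, 1 table per tissue, with a status word beside each value. Per the submitters' processing notes, the tools were Cufflinks, Cuffdiff, Bowtie, Bowtie2, TopHat and TopHat2, with rat build rn5; their versions, options and strand setting are not stated in these sources. Values of loci with one symbol were added up (16223 symbols in hippocampus, 16183 in hypothalamus). Each library was divided by a median-of-ratios factor (0.889 to 0.947 for hippocampus, 1.07 to 1.11 for hypothalamus) over shared symbols. Calls used a pseudocount of 1, a minimum mean of 1 FPKM and a difference of at least 1. Older symbols were matched through RefSeq synonyms (Ftl1 and Isca2). The genes, lists and rules were chosen with earlier results of these data known. Named were the 8 genes, from each iron list the called genes and the 2 most abundant, from each marker list the 2 most abundant, reference genes 4-fold apart and the genes of nearest profile. Heph, Hmox2, Hamp, Blvrb, Aco1, Ireb2, Otx2, Mobp, Ppbp, Neurod2, Neurod6, Prox1, Avp and Oxt were named after their values were seen, and so was the use of neighbouring loci. One gene that this rule names is not reported here. Locus numbers were taken as an order of listing, since the tables hold no coordinates. Slco2a1 and Rab6b were listed before both hypothalamus Tf loci, so distance along the genome cannot be read from the numbers. Calculations used Python 3.11.15 and pandas 2.3.3.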

Additional observations from a re-analysis of the deposited data

How the results depend on the processing

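Fth1, Ftl1 and Cp were called higher under all 20 alternatives each, with log2 differences of 1.20 to 1.81, 1.44 to 2.32 and 1.72 to 2.30. Tf was called under 19 of 20. All 19 keep the locus listed for hypothalamus alone against a different locus in hippocampus, so this count does not measure how firm the call is. Tf was at -0.82 at the locus listed next to Rab6b in both tables, an alternative chosen after seeing the data. So were leaving out replicate 1 of both tissues, hippocampus replicates 3 and 4, or hippocampus replicate 2 and hypothalamus replicate 1. Tf has no value with 1 locus in each table. Tfrc and Slc11a2 were called under none of 20. Hmox1 was called under 6 of 20, including 1.10 without replicate 1 of both tissues. The median over the iron lists was 0.22 with values as deposited, 0.12 with upper-quartile factors and 0.13 without hippocampus replicates 3 and 4, against 0.02, and 5 of their genes were lower, against 3, with a pseudocount of 0.1. In the same order of settings, the median over all genes compared was 0.18, 0.07 and -0.03, against -0.04. With a pseudocount of 0.1, 1620 of all genes were lower, against 1414. The cause of the shifts was not tested. Pairing by replicate number was looked at: deviations of same-numbered libraries correlated across genes at -0.09, -0.08, 0.08 and 0.15. Different-numbered libraries correlated at -0.21 to 0.21. These values neither show nor exclude that same-numbered libraries came from 1 animal. With the replicate block (all same-numbered differences of 1 sign in place of no overlap), 1436 genes were higher and 1431 lower, against 1406 and 1414, and 4 iron handling genes were called higher as before. FPKM without reads limits low genes such as Slc40a1, whose counting error is unknown.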

Other observations

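The genes with the profile nearest to that of Tf over the 8 libraries, among 8071 genes averaging 5 FPKM or more, were Pmch, Hcrt, Gapdh, Plac8 and Lhx1, at root mean square distances of 0.64 to 1.12 in log2(FPKM + 1) after centring. Pmch and Hcrt encode peptides of lateral hypothalamic neurons. This likeness follows from a difference near that of Tf, which sets different loci side by side, so nothing is drawn from it. For Hmox1 the nearest were Lrp1, itself on the heme list and with 3 of 4 hippocampus values of a status other than OK, and Raver1, at distances of 0.06 and 0.07. For Fth1 they were Rgs9 and Efemp2 (0.12 and 0.13), for Ftl1 Efemp1 and Snapap (0.42 and 0.53), and for Cp Fam173a and Igsf1 (both 0.20). For Tfrc they were Me1 and Asb3 (both 0.07), for Slc11a2 Ttc4 and Vti1a (both 0.05), and for Slc40a1 Stx2 and Grik1 (both 0.07), the last for a gene whose own profile is nearly flat on this scale.

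Alas2, the erythroid enzyme of heme synthesis, was at 18.5, 13.8, 3.24 and 6.67 FPKM in hypothalamus replicates 1 to 4 and at 3.20, 3.21, 1.69 and 5.54 in hippocampus, and the tissues overlapped. Its high libraries in hypothalamus were the same 2 in which Ftl1 was high.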
